A study of Rattus norvegicus with 6 samples.

Results

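The genes Ttr, Folr1, Clic6, Kl, Otx2, Aqp1, Slc4a5, Prlr and Sostdc1 are known from the choroid plexus, the secretory tissue of the brain ventricles. They were chosen by name, and each was found on the array through the transcript accession of its probe, 1 probe per gene, 9 of 15168 genes so named on the array. Brain RNA came from 3 SPORTS rats and 3 wild type rats, all male, of Wistar background, 15 weeks old and sedentary. SPORTS is a hyperactive mutant line; the labels give its genotype only by that name and state neither the mutated gene nor the part of the brain that was taken. Each rat gave 1 single-colour Agilent array. A signal is given as log2 of the processed intensity minus the 75th percentile of the array, so that 0 is that percentile, and a difference is SPORTS minus wild type with the standard error (SE) of the fit.

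The choroid plexus is a sheet of cuboidal epithelium around a core of leaky capillaries and connective tissue. Its cells secrete cerebrospinal fluid by moving ions and water from blood to ventricle, and they release carrier proteins and hormones into that fluid. Because the tissue hangs inside the ventricles, a brain sample contains it only where the piece of ventricle was taken along. In whole-tissue RNA, fewer choroid plexus cells and less of a transcript per cell cannot be told apart.

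None of the 9 genes passed the test between SPORTS and wild type brains (limma, Benjamini-Hochberg adjustment over all probes tested, threshold 0.05), and 0 had an unadjusted p under that threshold. Among all 20657 probes tested, 21.1% were called. The difference was below 0 for 8 genes and above 0 for 1, with a median of -0.36, where the median over all probes was -0.0017. The groups overlapped for each of the 9, whereas they did not overlap for 41.9% of all probes. On SPORTS replicate 1, 8 of the 9 genes were at their lowest signal of the 6 arrays. For these 8 the other 5 arrays spanned between 0.18 (Ttr) and 0.41 (Aqp1). For Aqp1 that span was wider than the gap of SPORTS replicate 1 below the next array (0.36). For Otx2 the other 5 arrays spanned 0.83. Without SPORTS replicate 1 the median difference of the 9 was 0.04, 6 genes were above 0 and 3 below, and again none was called. Without SPORTS replicate 3 the median was -0.63, and none was called either.

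All 9 genes passed the filter on dim probes, and 7 were well above background on all 6 arrays. Kl and Prlr were not well above background on SPORTS replicate 1 and were tested because they were so on every wild type array. No spot was saturated. Over the 6 arrays, the 75th percentile of the processed intensity was between 1530 and 1628, and 1578 on SPORTS replicate 1. Between 20325 and 23261 of 30367 probes were well above background, 21636 of them on SPORTS replicate 1. All arrays were on 1 slide: wild type replicates 1 and 2 were in row 1, and wild type replicate 3 and the SPORTS arrays in row 2. With 3 arrays a group, precision is limited by their number.

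The start regions of some of the genes are shown as a description of their sequence, and their relation to the signals was not tested. RefSeq windows on build GRCr8, from 250 bases before to 50 bases after the annotated start, were at hand for 5 of the 9 genes, 6 windows in all, 2 of them for Prlr. No window was used for Folr1, Clic6, Otx2 and Sostdc1. Of these windows, 3 held a TATA or CCAAT box and are printed 5′ to 3′. Capitals mark these boxes, on the strand shown or on the other. The window of Ttr is chr18:12218508-12218807 (plus strand), that of Aqp1 chr4:85812534-85812833 (plus strand) and that of Slc4a5 chr4:117283044-117283343 (plus strand).
Ttr: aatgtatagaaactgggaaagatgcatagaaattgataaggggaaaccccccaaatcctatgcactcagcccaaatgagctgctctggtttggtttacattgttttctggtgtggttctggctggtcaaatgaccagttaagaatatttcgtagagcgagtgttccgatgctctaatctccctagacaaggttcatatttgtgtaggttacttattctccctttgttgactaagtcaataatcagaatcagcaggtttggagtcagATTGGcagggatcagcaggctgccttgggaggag
Aqp1: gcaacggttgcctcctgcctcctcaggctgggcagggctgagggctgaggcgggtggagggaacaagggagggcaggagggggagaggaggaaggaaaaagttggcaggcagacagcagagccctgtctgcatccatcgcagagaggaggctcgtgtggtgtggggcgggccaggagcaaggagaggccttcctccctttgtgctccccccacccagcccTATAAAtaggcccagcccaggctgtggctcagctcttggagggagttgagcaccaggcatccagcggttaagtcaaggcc
Slc4a5: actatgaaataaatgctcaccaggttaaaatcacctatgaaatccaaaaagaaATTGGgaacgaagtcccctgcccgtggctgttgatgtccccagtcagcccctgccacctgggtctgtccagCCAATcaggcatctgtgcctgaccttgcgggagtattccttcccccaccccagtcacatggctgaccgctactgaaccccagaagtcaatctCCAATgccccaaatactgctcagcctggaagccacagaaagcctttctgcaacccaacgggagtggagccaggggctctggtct
The Aqp1 window held the TATA box, TATAAA, at 30 bases before the start. It was the 1 window of the 6 with these letters, which 14.2% of all 33469 windows held on either strand. The CCAAT box, searched on both strands by these 5 letters, was in 2 of the 6 windows and in 37.5% of all windows. In Ttr the match was 17 bases into the transcript on the minus strand, and Slc4a5 had 3 matches. The GC box, GGGCGG, was in the windows of Kl, with 3 matches, and Aqp1, and in 33.1% of all windows; it is not in capitals. The letters TAATCC, bound by homeodomain proteins of the Otx type, were in none of the 6 windows and in 7.17% of all windows. A forkhead motif, GTAAACA, was in none of the 6 and in 3.78% of all. These motifs did not overlap each other where printed. A match is a description of the letters, and no match says only that they are not in these windows. The windows differed in base composition, with 43.7% G and C in Ttr, 54% in Slc4a5, 64% in Aqp1 and 75% in Kl.

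Among the carriers, Ttr encodes transthyretin, which carries thyroxine and the retinol-binding protein and is the main secreted protein of the choroid plexus epithelium. Its signal was 6.06, 6.98 and 7.16 in SPORTS replicates 1, 2 and 3, against 7.07, 7.02 and 7.11 in wild type replicates 1, 2 and 3. SPORTS replicate 1 was the lowest array, 1.88-fold below the next, while SPORTS replicate 3 was the highest, so that the wild type arrays lay between SPORTS arrays. The difference was -0.33 ± 0.28 (SE, adjusted p = 0.466), and the 95% interval of the SPORTS to wild type ratio ran from 0.491 to 1.29. Without SPORTS replicate 1 the difference was 0.0045 ± 0.070 (adjusted p = 0.974), and the interval of the ratio narrowed to 0.884 to 1.14. The other 5 arrays spanned 0.18.

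Folr1 encodes folate receptor alpha, which takes folate across the choroid plexus into the cerebrospinal fluid. It was at -2.11, -0.97 and -0.72 in SPORTS, against -0.87, -0.94 and -0.91 in wild type. The 3 wild type arrays were within 0.07 of each other, and SPORTS replicate 1 was 2.2-fold below the next lowest array. The difference was -0.36 ± 0.35 (adjusted p = 0.529), and it was 0.06 ± 0.09 without SPORTS replicate 1 (adjusted p = 0.691).

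The water and ion carriers move the fluid itself. Aqp1 encodes the water channel of the ventricle-facing membrane. It was at -2.98, -2.56 and -2.21 in SPORTS, against -2.27, -2.62 and -2.60 in wild type. SPORTS replicate 1 was again lowest, but only 1.28-fold below the next array, and the other 5 arrays spanned 0.41. The difference was -0.09 ± 0.21 (adjusted p = 0.812), and its sign turned without SPORTS replicate 1 (0.11) and without wild type replicate 1 (0.03).

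Slc4a5 encodes the sodium bicarbonate cotransporter NBCe2, which carries bicarbonate over the same membrane. Its signal was -5.41, -4.79 and -4.53 in SPORTS, against -4.69, -4.41 and -4.58 in wild type. SPORTS replicates 1 and 2 were below the wild type arrays and SPORTS replicate 3 was among them. The difference was -0.35 ± 0.23 (adjusted p = 0.338), -0.10 ± 0.12 without SPORTS replicate 1 (adjusted p = 0.622) and -0.16 with normexp background correction (adjusted p = 0.366). Clic6, of the chloride intracellular channel family, was at -5.32, -3.94 and -3.74 in SPORTS, against -3.84, -3.95 and -3.84 in wild type. SPORTS replicate 1 lay 2.57-fold below an otherwise tight set that spanned 0.22. The difference of Clic6 was -0.46 ± 0.41 (adjusted p = 0.490), 0.04 ± 0.08 without SPORTS replicate 1 (adjusted p = 0.806) and -0.24 with normexp (adjusted p = 0.419).

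Among the hormone and receptor genes, Kl encodes klotho, a coreceptor for FGF23 whose shed part is found in cerebrospinal fluid. Kl was at -6.19, -4.38 and -4.07 in SPORTS, against -4.01, -4.05 and -4.38 in wild type. SPORTS replicate 1 was below the other 5 arrays, but it was not well above background there, with 1 of its 2 spots so, and no fold is given for that distance. The difference was -0.73 ± 0.56 (adjusted p = 0.409; ratio between 0.233 and 1.55 at 95%). It was -0.08 ± 0.15 without SPORTS replicate 1 (adjusted p = 0.776) and -0.32 with normexp background correction (adjusted p = 0.361).

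Prlr encodes the prolactin receptor, through which the choroid plexus is known to bind and take up prolactin from blood. It was at -6.52, -5.43 and -5.12 in SPORTS, against -5.29, -5.11 and -5.22 in wild type. SPORTS replicates 1 and 2 were below every wild type array, by a wide margin only in replicate 1, where 1 of the 10 spots was well above background. The difference was -0.48 ± 0.35 (adjusted p = 0.393), -0.07 ± 0.11 without SPORTS replicate 1 (adjusted p = 0.719) and -0.12 with normexp (adjusted p = 0.461).

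Sostdc1 encodes a secreted antagonist of BMP and Wnt signalling that is used as a marker of this epithelium. It was at -1.49, -0.28 and 0.01 in SPORTS, against -0.14, -0.18 and -0.28 in wild type. The wild type arrays lay between SPORTS replicates 2 and 3, or level with them, and SPORTS replicate 1 was 2.31-fold below the next array. The difference was -0.39 ± 0.38 (adjusted p = 0.531), and 0.06 ± 0.10 without SPORTS replicate 1 (adjusted p = 0.723).

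Otx2, a homeobox transcription factor needed to form and maintain the choroid plexus and also active in the pineal gland, was the 1 gene of the 9 with another pattern. It was at -1.16, -0.83 and -0.69 in SPORTS, against -1.51, -1.22 and -0.71 in wild type. Its lowest array was wild type replicate 1, and SPORTS replicate 1 lay within the range of wild type. The difference was 0.25 ± 0.23 (adjusted p = 0.492), 0.39 ± 0.25 without SPORTS replicate 1 (adjusted p = 0.360) and -0.19 with slide row in the model (adjusted p = 0.657). The value of wild type replicate 3 is uncertain, since its 2 spots were at -1.35 and -0.06. The pineal enzyme genes Aanat and Asmt were also lowest on wild type replicate 1, at -5.55 and -5.30, and the part of pineal tissue in the Otx2 values was not tested. Of a list of 8 pineal genes, all on the array, only these 2 were tested, and both had low signals. The difference of Asmt was 0.43 ± 0.13 (adjusted p = 0.0655), and it was called only with quantile normalisation (adjusted p = 0.0391; range over the alternatives 0.0391 to 0.307). Aanat differed by 0.25 ± 0.28 (adjusted p = 0.583).

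**Figure D1:**
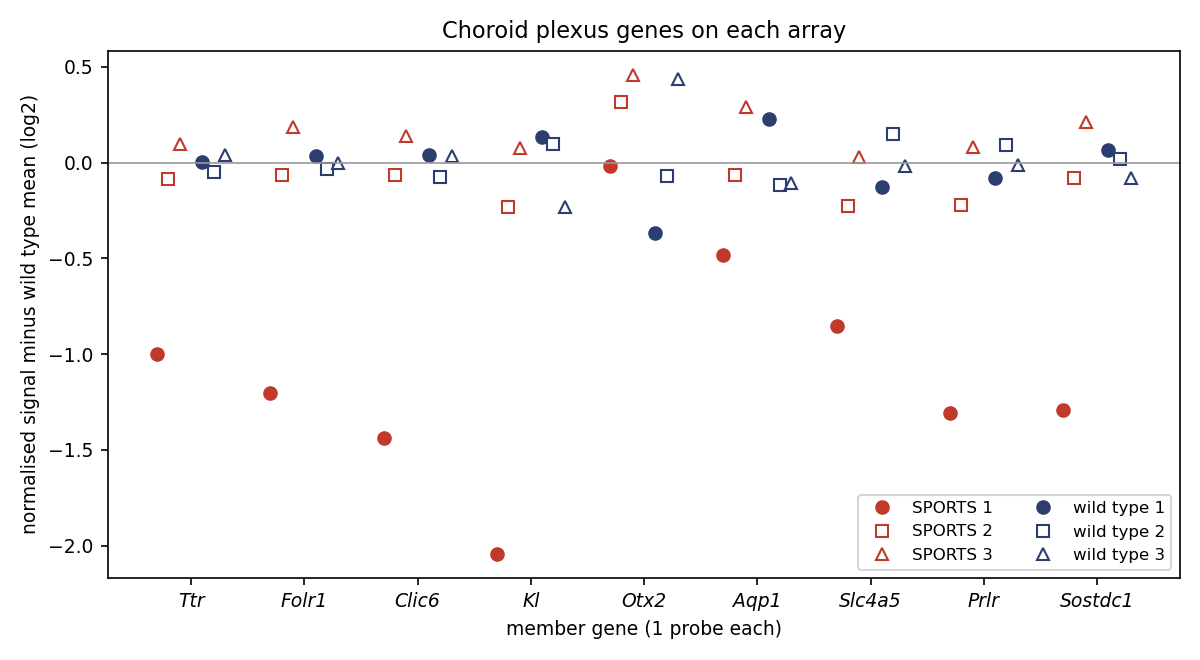
Signal of each of the 9 choroid plexus genes on each array, as log2 minus the wild type mean of that gene; red symbols are SPORTS and blue symbols wild type, and the filled circles are replicate 1 of each group. The filled red circle is the lowest point for every gene but Otx2, and for those genes the other points lie nearer the line at 0.

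Spots printed on the same array bear on how firmly SPORTS replicate 1 stands apart for each gene. For the 8 genes that were lowest there, the brightest spot of SPORTS replicate 1 was below the dimmest spot of the other 5 arrays. For Aqp1, Prlr and Sostdc1 this held over 9 or 10 spots per array after outlier spots were left out, and for the others over 2. On SPORTS replicate 1 most spots of Prlr and 1 of the 2 of Kl were not well above background. The margin was narrow for Prlr, at -5.75 against -5.71, and wide for Sostdc1, at -1.35 against -0.42. Spots of 1 array share its RNA, so they speak of that array and not of the line.

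**Figure D2:**
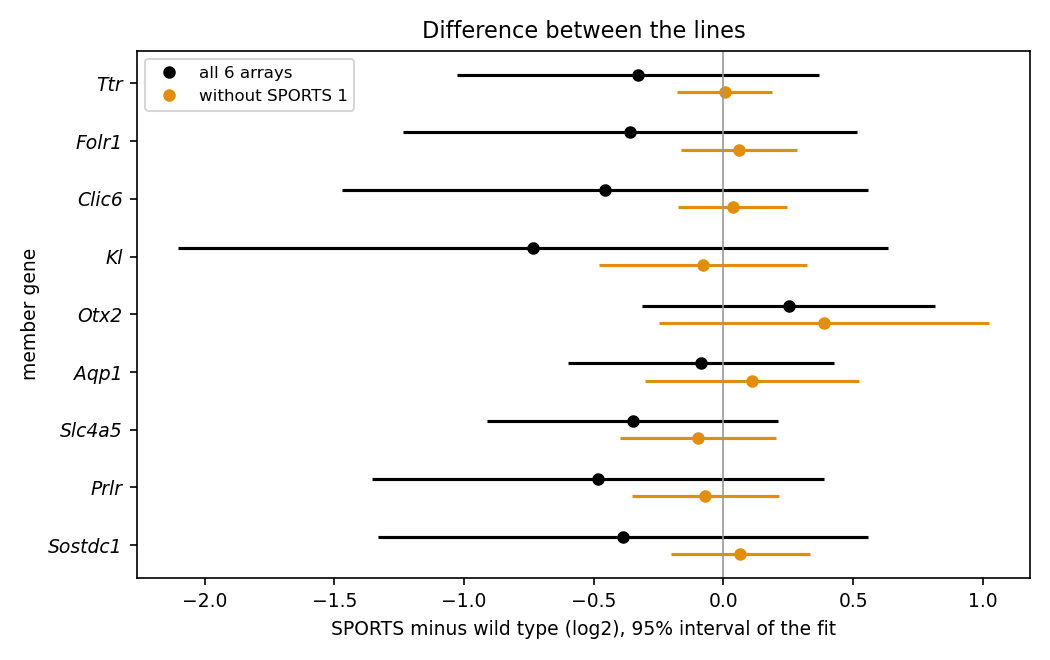
Difference of each gene, SPORTS minus wild type on the log2 scale, with the 95% interval of the limma fit over all 6 arrays in black and without SPORTS replicate 1 in orange. Every interval includes 0 in both fits; with all arrays 8 differences are below 0, and without SPORTS replicate 1 the median is 0.04.

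Slide position could be set against the groups only through wild type replicate 3, the 1 wild type array in row 2. With slide row in the model the median of the 9 differences was -0.36, 8 were below 0, and none was called (adjusted p between 0.625 and 0.978). SPORTS replicate 1 was in the same row as the other SPORTS arrays. Within row 2 it was below wild type replicate 3 for all 9 genes. For Otx2 this rests on the uncertain value of wild type replicate 3. Its 2 spots, at -1.35 and -0.06, lay on either side of the spots of SPORTS replicate 1. SPORTS replicates 2 and 3 lay closer to wild type replicate 3 than SPORTS replicate 1 did, except for Aqp1, where SPORTS replicate 3 was above it by more.

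Further genes of the choroid plexus epithelium were read from a list of 42, of which 35 were on the array and 33 were tested. Of these, 6 were higher in SPORTS, 3 were lower and 24 did not pass, so that 27.3% were called, where 24.3% of all 11032 genes were (12.9% higher and 11.4% lower). The groups did not overlap for 11 of the 33, where the share over all genes was 47.1%. The median difference was -0.01, against 0.01 over all genes. On SPORTS replicate 1 were the lowest signals of 19 of the 33. For this and the other counts of lowest or highest signals on that array, the share over all genes is not given. The counts therefore do not separate a trait of a list from a trait of the array. Without SPORTS replicate 1, 5 of the 33 were called, and 3 without SPORTS replicate 2 or with slide row in the model.

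The called genes of this list named here had no gap of the size seen for Ttr or Folr1 on SPORTS replicate 1. Igfbp2, a binding protein of insulin-like growth factors also made by the meninges and glia, was at 2.19, 2.16 and 2.05 in SPORTS, against 1.63, 1.55 and 1.38 in wild type. Every SPORTS array was above every wild type array, and it rose by 0.61 ± 0.08 (adjusted p = 0.00448; range over the alternatives 0.000442 to 0.0277). Igf2, a growth factor of choroid plexus and meninges, averaged 2.92 ± 0.12 in SPORTS and 2.39 ± 0.16 in wild type (SD, n = 3 each). It rose by 0.53 ± 0.10 (adjusted p = 0.0172), and its call ended without SPORTS replicate 1 or 2 (adjusted p = 0.0581 and 0.0611). The tight junction gene Cldn3 and the keratin gene Krt8 fell by 0.55 ± 0.10 and 0.51 ± 0.11 (adjusted p = 0.0168 and 0.0282). Both calls ended without SPORTS replicate 1 (adjusted p = 0.0528 and 0.0868), without SPORTS replicate 2 (0.0567 and 0.0653) and without wild type replicate 2 (0.0558 and 0.0731); both also ended with slide row in the model (0.133 each), and that of Krt8 also ended without wild type replicate 1 or 3 (0.0710 and 0.0812). The protease inhibitor gene Spint2, which is known from many epithelia, rose by 0.29 ± 0.04 (adjusted p = 0.00543), a call lost with slide row in the model (adjusted p = 0.0620). The copper transporter gene Slc31a1 fell by 0.32 ± 0.06 (adjusted p = 0.0199); its call ended without SPORTS replicate 2 or 3 (0.0680 and 0.0601) and without wild type replicate 1 (0.0558). The calls of Igf2, Cldn3, Krt8 and Slc31a1 also ended without the filter on dim probes (adjusted p = 0.0533 to 0.0793). In slide row 2 alone, where 1 wild type array was left, the calls of these genes and of Spint2 (difference 0.26) ended too.

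Meningeal and fibroblast markers, which include genes of the connective tissue core that the choroid plexus also has, were higher in SPORTS on the same arrays. Of 17 tested, 11 were higher and 1 was lower, with a median of 0.63. Of the 11, Lum was well above background on 3 SPORTS arrays and 2 wild type arrays, so it was tested only through SPORTS. The summed level of the 17, as a percentage of the mean of the 6 arrays, was 129%, 109% and 102% in SPORTS. In wild type it was 90.3%, 84.5% and 84.5%. That sum is mostly the signal of the bright gene Ptgds, which did not pass (adjusted p = 0.0726). Dcn, the fibroblast proteoglycan decorin, rose by 1.12 ± 0.05 (adjusted p = 0.000143). On SPORTS replicate 1, 12 of the 17 were at their highest, where the 9 choroid plexus genes together were at 54.5% of their mean, against 103% and 117% on SPORTS replicates 2 and 3 and 105% to 112% in wild type. The sum of the 9 is mostly the signal of Ttr. The part of the meninges in the values of the choroid plexus genes was not tested.

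Ependymal cells line the ventricles next to the choroid plexus. Of 12 tested genes of ependyma and motile cilia, 2 were higher, 1 was lower and 9 did not pass (median -0.04). That is 25% called, near the 24.3% of all genes, and 8 of the 12 were lowest on SPORTS replicate 1. Rsph1, of the ciliary radial spoke, fell by 0.90 ± 0.11 (adjusted p = 0.00417; 0.0673 in slide row 2 alone). Its signal was -1.64, -1.41 and -1.23 in SPORTS, against -0.55, -0.59 and -0.45 in wild type, so all SPORTS arrays were lower, SPORTS replicate 1 the lowest.

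How far SPORTS replicate 1 stood apart in other genes was counted with a gap of 0.7 on the log2 scale, chosen after the values were seen. On that array 27 of 11032 genes lay more than this below all other arrays. These held 6 of the 9 (Kl, Clic6, Sostdc1, Folr1, Prlr and Ttr) and 5 of the further list (Cldn2, Tmem72, Mfrp, Lmx1a and Kcne2), together 40.7% of the 27. Kl and Prlr were not well above background on that array; among the 19 genes that were so on all 6 arrays, 4 were of the 9 and 5 of the further list. On the other arrays the number of such genes was 4 and 0 in SPORTS replicates 2 and 3, and 58, 1 and 5 in wild type replicates 1, 2 and 3, with 0 of the 9 and 0 of the further list among them. In the other direction, 47 genes lay more than 0.7 above all other arrays on SPORTS replicate 1. Their number was 20 and 16 on SPORTS replicates 2 and 3, and 6, 9 and 35 on wild type replicates 1, 2 and 3. Some of the 27 are known from places other than the choroid plexus: the hypothalamic peptide gene Pmch was at -3.94, 0.70 and 2.37 in SPORTS, against 0.45, 2.82 and 3.01 in wild type. The peptide gene Trh was at -5.73, -3.98 and -3.57 in SPORTS, against -2.66, -2.39 and -2.55 in wild type. Trh was thus lower on every SPORTS array than on every wild type array. So was Adora2a, also among the 27, at -4.09, -3.13 and -3.29 in SPORTS, against -0.24, -0.50 and -0.54 in wild type. Pmch, Trh and Adora2a were named after their values were seen.

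Most markers of the cerebellum were at their highest on the same array. Of a list of 14, all on the array, 12 were tested, and Gabra6 and En2 were not. Of the 12, 9 were highest on SPORTS replicate 1 and 1, Pcp4, was lowest there. The margin could be small, as for Zic1, at -2.79 there against -2.82 on SPORTS replicate 3. The 9, of which those named were chosen after their values were seen, held the Purkinje cell genes Pcp2, at -0.51 against -3.75 to -3.54 on the other 5 arrays, and Car8, at 0.34 against -1.59 to -1.43. The granule cell gene Cbln1 was at 0.34 there, against -1.03 to -0.42. Between the lines 0 of the 12 were higher and 2 lower, 16.7% called, where 24.3% of all genes were. The 2 were Pcp4, at 1.98, 2.26 and 2.36 in SPORTS, against 2.77, 2.70 and 2.64 in wild type, and Itpr1. They fell by 0.51 ± 0.10 and 0.32 ± 0.08 (adjusted p = 0.0211 and 0.0335), and both calls ended with slide row in the model (0.164 and 0.126). Leaving out 1 array also ended them: for Pcp4 without SPORTS replicate 2 or wild type replicate 1 or 2 (0.0545 to 0.0654), and for Itpr1 without SPORTS replicate 2 or 3 or wild type replicate 1 or 3 (0.0934 to 0.102). The summed level of the 12 markers was 104%, 89.4% and 87.4% of the mean in SPORTS, against 107%, 103% and 109% in wild type. That sum is mostly the signal of the bright genes Itpr1, Pvalb and Pcp4, and Pcp2, Car8 and Cbln1 add little to it. The part of the cerebellum in the values of the choroid plexus genes was not tested.

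**Figure D3:**
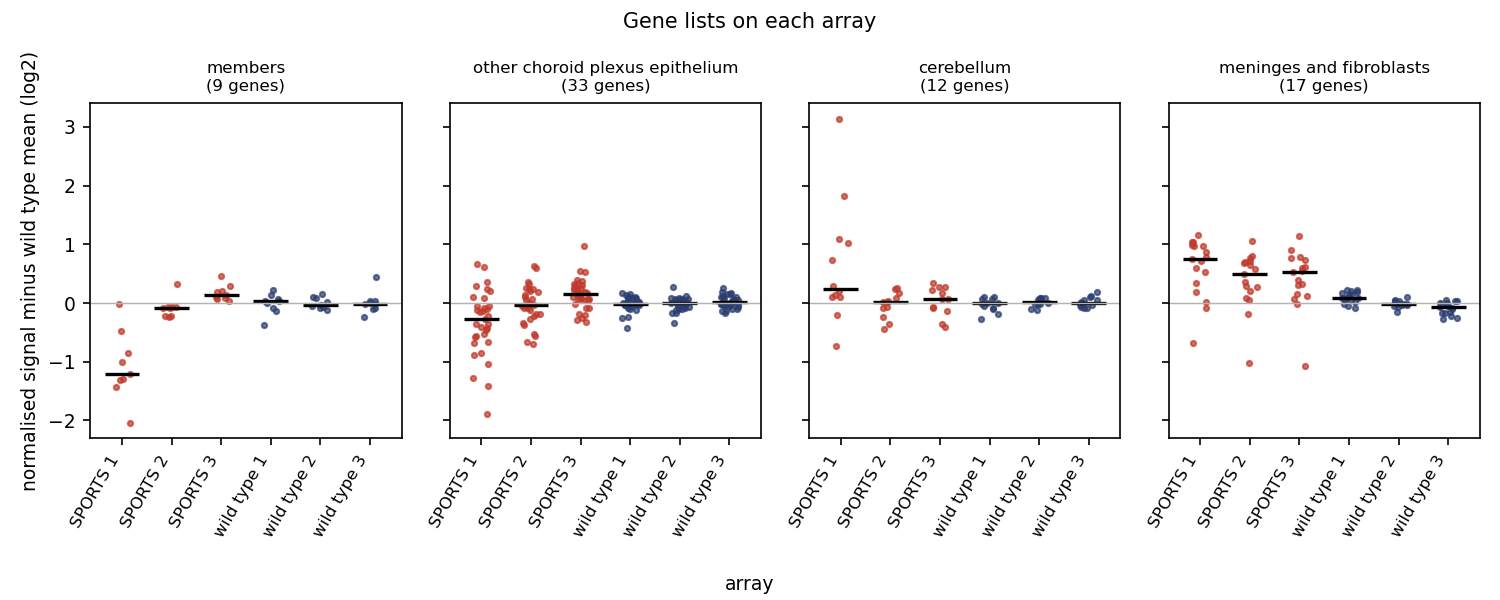
Signals on each array, as log2 minus the wild type mean of each gene, for the 9 genes, the 33 further genes of the choroid plexus epithelium, 12 cerebellar markers and 17 meningeal and fibroblast markers; points are genes and black bars medians. In the first panel SPORTS replicate 1 is the low column. In the panel of meningeal markers the medians of all SPORTS columns lie above those of wild type, while single genes such as Ogn lie below.

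The genes most like the 9 over the arrays were sought among 319 genes that are well above background on all 6 arrays and vary by a standard deviation of at least 0.5. The measure was Pearson's correlation, over the 6 arrays, with the mean of the 7 members well above background on every array, each centred on its own mean. That mean profile was at -0.77 on SPORTS replicate 1, at 0.08 and 0.32 on SPORTS replicates 2 and 3, and between 0.10 and 0.17 in wild type, so a high correlation says mainly that a gene is low on SPORTS replicate 1. The highest were Tmem72 (0.98), Glycam1 (0.98), Cldn2 (0.97), Mfrp (0.97), C8h11orf97 (0.97) and Cltrn (0.93), over 6 arrays. Tmem72, Cldn2 and Mfrp are in the further list of choroid plexus genes, and the other 3 are not.

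None of these 6 passed the test between the lines. Cldn2, a claudin of leaky, water-permeable tight junctions, was at -5.20, -3.65 and -3.24 in SPORTS, against -3.16, -3.48 and -3.30 in wild type. Only SPORTS replicates 1 and 2 were below the wild type arrays, and the difference was -0.72 ± 0.50 (adjusted p = 0.371). Mfrp, which encodes a membrane frizzled-related protein, was at -4.32, -3.22 and -2.96 in SPORTS, against -3.12, -3.20 and -2.79 in wild type (difference -0.46 ± 0.36, adjusted p = 0.423). Tmem72, a transmembrane protein gene, was at -5.57, -4.19 and -4.10 in SPORTS, against -4.18, -4.26 and -4.03 in wild type, a difference of -0.46 ± 0.40 (adjusted p = 0.471). Each was lowest on SPORTS replicate 1, with the groups overlapping on the other arrays. The differences of Glycam1, C8h11orf97 and Cltrn were -0.68 ± 0.46, -0.53 ± 0.38 and -0.03 ± 0.49 (adjusted p = 0.352, 0.377 and 0.977). Cltrn, which encodes collectrin, stood apart from the other 5 in that its SPORTS replicates 2 and 3, at -3.44 and -3.14, were above every wild type array (-3.99 to -3.69). Without SPORTS replicate 1 its difference was 0.55 (adjusted p = 0.0582).

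**Figure D4:**
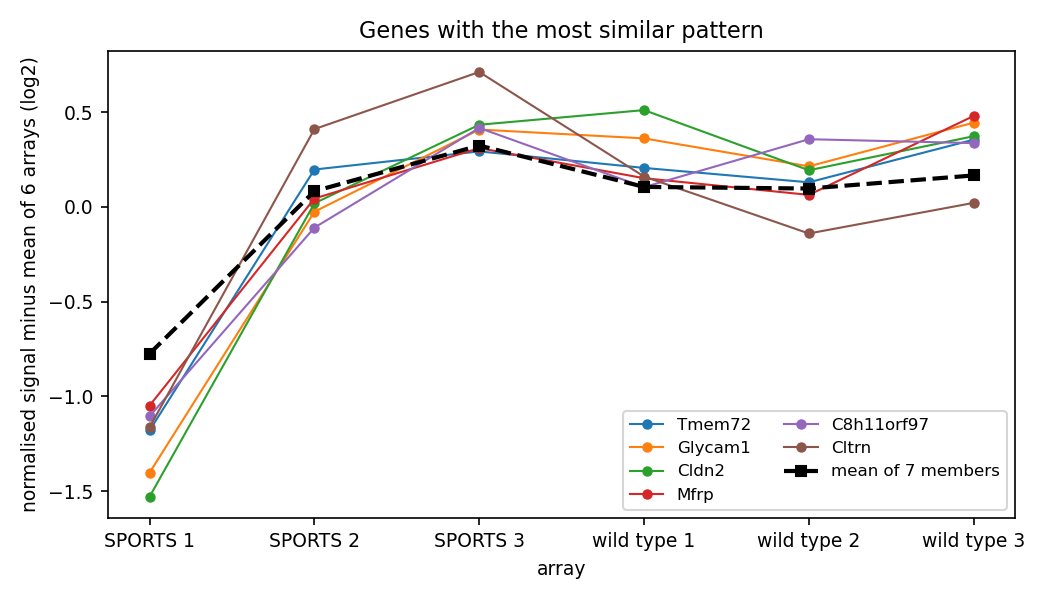
Signal on each array, as log2 minus the mean of the 6 arrays, for the 6 genes whose pattern is most like the mean of 7 choroid plexus genes (black dashed line). All lines dip on SPORTS replicate 1, and the dashed line is at -0.77 there.

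The pathways in which the 9 genes act were read from lists chosen by function, with 24.3% of all genes called as the background. For transthyretin, 6 of 15 genes of thyroid hormone and retinol handling were called, 4 higher and 2 lower. Of the 4 higher, 1 was well above background on 3 SPORTS arrays but only 1 wild type array. It was tested only through the group where it is high. Rbp4, the retinol-binding protein that transthyretin carries, rose by 0.75 ± 0.04 (adjusted p = 0.000306) and the retinoid receptor gene Rxrg fell by 1.13 ± 0.07 (adjusted p = 0.00042), while Ttr itself did not pass. Rbp4 was at 2.19, 2.10 and 2.19 in SPORTS, against 1.39, 1.43 and 1.40 in wild type, with no dip on SPORTS replicate 1. For folate receptor alpha, 4 of 11 genes of folate transport and metabolism were higher and 0 lower. They were led by Aldh1l1, an enzyme of folate metabolism in astrocytes, at 0.31 ± 0.04 (adjusted p = 0.00527). With slide row in the model all 4 of these calls ended (adjusted p = 0.0552 for Aldh1l1, up to 0.187). For the water and ion carriers, 5 of 29 genes of fluid secretion were higher and 1 was lower (median 0.01). Clcn3, a chloride-proton exchanger gene, rose by 0.68 ± 0.05 (adjusted p = 0.00114).

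Around klotho, 1 of 7 tested genes of klotho and FGF signalling was higher, Fgfr1, a receptor with which klotho pairs, at 0.25 ± 0.05 (adjusted p = 0.0266). Leaving out any 1 array other than SPORTS replicate 2 ended that call (adjusted p = 0.0531 to 0.0787), as did slide row in the model (0.195). Around the prolactin receptor, 3 of 10 genes were higher and 0 lower. They were led by Stat5a, a transcription factor downstream of the receptor, at 0.32 ± 0.05 (adjusted p = 0.0102). With slide row in the model all 3 of these calls ended (adjusted p = 0.0864 for Stat5a, up to 0.167). For Sostdc1, 4 of 18 Wnt and BMP genes were higher and 4 lower. Bmp7, a BMP ligand, rose by 0.72 ± 0.07 (adjusted p = 0.00179), and Fst, the secreted antagonist follistatin, fell by 0.59 ± 0.09 (adjusted p = 0.00714; 0.0725 with slide row in the model). For Otx2, 2 of 12 homeobox and roof plate genes were higher and 2 lower. Of the 2 higher, 1 was well above background on 3 SPORTS arrays and 0 wild type arrays. It was tested only through the group where it is high. Msx2, a homeobox gene of the roof plate, was higher by 0.77 ± 0.13 (adjusted p = 0.0122, and 0.109 with slide row in the model). Most genes of these lists are active in many brain cells, and a call says nothing of the choroid plexus itself.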

How the data were processed

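Brain RNA of 6 rats was hybridised to 6 arrays. Per the file headers, the authors took the intensity values from Agilent Feature Extraction 10.10.1.1, with background subtracted and no normalisation between arrays. The deposited table holds the same intensity values times 1 factor per array (1.38 to 1.47). Spots flagged as outliers were left out, log2 of the spots of a probe was averaged, and the 75th percentile over the spots that are not controls was subtracted. Tested probes had a share above 0.5 of spots well above background on every array of 1 group or both. Accessions were matched to RefSeq symbols, and a gene of a list stands for its brightest tested probe. The lines were compared with limma 3.58.1 in R 4.3.3 (two-sided), with files read by the R package data.table (version 1.17.8), after a test on simulated data.

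The 9 genes and all lists were chosen with earlier results of these data known. Named were the 9 genes, up to 6 called genes per list with the largest differences (fewer are printed here), up to 2 genes of lists without a call, and the 6 genes most like the 9. The values of 1 gene so named are not reported here. Alternatives were other normalisations, filters, variance models, the slide row and leaving out each array.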

Additional observations from a re-analysis of the deposited data

How the results depend on the processing

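None of the 9 choroid plexus genes was called under any alternative run, and the median of the 9 differences was below 0 under each except without SPORTS replicate 1. Leaving out 1 array turned the sign of some differences, which ran from -0.54 to 0.0045 for Ttr, -0.63 to 0.060 for Folr1, -0.75 to 0.036 for Clic6, -0.27 to 0.11 for Aqp1, -0.69 to 0.065 for Sostdc1, -0.72 to 0.015 for Tmem72, -0.39 to 0.55 for Cltrn and -0.064 to 0.51 for Aanat. The sign turned without SPORTS replicate 1, except for Aanat (without wild type replicate 1) and for Aqp1 and Cltrn (without either, 0.026 and 0.046 without wild type replicate 1). It also turned with the slide row as a block, and in row 2 alone, for Otx2 (-0.19), Aqp1 (0.021) and Aanat (-0.26), and with normexp for Cltrn (0.075). None of these was called on either side. Of all probes, 4364 were called, against 2343 without the filter on dim probes, where more probes share the adjustment, 1597 with the slide row as a block, 1220 in row 2 alone and 2551 to 3194 with 1 array left out. The called genes of the further choroid plexus list were 9, against 3 with the slide row as a block and 3 to 7 with 1 array left out; fewer arrays or an added term leave fewer degrees of freedom. Over 78 values, 1321 recomputations gave 227 lost calls, 1 gained call and 17 turned signs. The percentile over distinct probes was added after seeing the data and changed no call of the 9. No paired analysis was possible because the labels give the rats no replicate numbers that both lines share in at least 2 pairs. Kl and Prlr, near background on SPORTS replicate 1, drop out of the filter on all 6 arrays, and groups of 3 were not tested for outlying arrays.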
